A study of Mus musculus with 14 samples.

Results

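The genes described here are the FOXO transcription factors of mouse kidney, Foxo1, Foxo3 and Foxo4, together with 5 metabolic and regulatory genes reported as their targets: Pdk4, Cited2, Txnip, Irs2 and Bcl6. These 8 genes were picked by name for their known place in the pathway, with earlier results of these data known, out of 23286 gene identifiers in the deposited tables, and all 8 passed the filter on low values. RNA was sequenced from whole kidneys of 9-week-old mice, collected 5 h after ischemia-reperfusion (IR), in which blood flow to the kidney is stopped and then restored, or after sham surgery. There were 4 groups of 3 libraries: VE-PTPiKO mice after IR, VE-PTPiKO mice after sham surgery, Control mice after IR and Control mice after sham surgery. VE-PTPiKO is the genotype that targets VE-PTP, the endothelial phosphatase encoded by Ptprb that removes phosphate from the angiopoietin receptor Tie2. The driver and the cells in which VE-PTP is targeted, the strain and sex of these mice, the genotype details of the Control mice and whether the 3 libraries of a group came from separate animals are not given in the sources used here. The p-values therefore measure the spread between libraries.

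FOXO proteins are forkhead transcription factors that bind DNA when growth factor signalling is low. Insulin, and in endothelium the angiopoietin receptor Tie2, activate PI3K and AKT, and AKT phosphorylates FOXO proteins, which then leave the nucleus. In fasted liver, muscle and kidney they are known for switching on genes that spare glucose and restart insulin signalling, and in endothelium for the Tie2 ligand gene Angpt2. Their activity is set mainly by phosphorylation and location, which RNA levels do not measure. In whole kidney, fewer cells of a type and less RNA per cell cannot be told apart.

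The libraries held between 15427887 and 21296392 reads in genes. Ptprb, the targeted gene, was at 75.0 to 125.7 CPM, reads scaled to the depth of the library, in VE-PTPiKO IR libraries, 117.3 to 162.4 CPM in VE-PTPiKO sham libraries, 111.7 to 158.5 CPM in Control IR libraries and 168.0 to 245.7 CPM in Control sham libraries. Its log2 difference between VE-PTPiKO and Control was -0.43 in sham kidneys and -0.45 after IR, and neither passed the limma test (adjusted p = 1 for both), so the genotype rests on the labels. Markers of the kidney tubule, podocyte and endothelium were detected in every library, with summed proximal tubule markers at 14290.4 to 21616.0 CPM. The 5 leukocyte markers summed to 33.7 to 39.3 CPM in VE-PTPiKO IR, 15.1 to 22.8 CPM in VE-PTPiKO sham, 27.0 to 46.8 CPM in Control IR and 14.8 to 21.0 CPM in Control sham libraries, with the T cell marker Cd3e at or near 0. The 2 red blood cell markers summed to 35.3 to 109.2, 19.0 to 31.5, 66.2 to 133.5 and 17.8 to 35.2 CPM in the same order of groups. Both sets were higher after IR, and their part in the results below was not tested. Malat1, a nuclear RNA that was 0.327% to 0.564% of the reads in 9 libraries, took 1.96% in VE-PTPiKO IR replicate 3, 1.15% in VE-PTPiKO sham replicate 2 and 1.02% in Control sham replicate 2. These 3 libraries stand apart. Comparisons within a genotype could leave out only its own: IR replicate 3 and sham replicate 2 in VE-PTPiKO, sham replicate 2 in Control kidneys. Of the calls of the 8 genes, that of Pdk4 in Control kidneys was the only one to change without them. The Pdk4 call was also lost without Control IR replicate 2, IR replicate 3 or sham replicate 3, which were not high in Malat1.

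After IR, Cited2 fell in both genotypes, and Foxo4 and Pdk4 fell in Control kidneys. By the limma test on log2 values, at a Benjamini-Hochberg adjusted p under 0.05 over all genes tested, 1 of the 8 genes passed in VE-PTPiKO kidneys, where 2.71% of 16401 genes passed, and 3 of the 8 in Control kidneys, where 11.5% of 16257 passed. All of these calls were lower after IR than after sham surgery, a direction taken by 0.793% of the genes tested in VE-PTPiKO and 4.02% in Control kidneys. None passed as higher, a direction taken by 1.92% of the genes tested in VE-PTPiKO and 7.48% in Control kidneys. The median log2 difference, IR over sham, of the 8 genes was -0.48 in VE-PTPiKO and -0.35 in Control kidneys, beside -0.01 for all genes tested in each. In each genotype 7 of the 8 differences were negative, the exception being Bcl6 in VE-PTPiKO and Irs2 in Control kidneys.

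**Figure D1:**
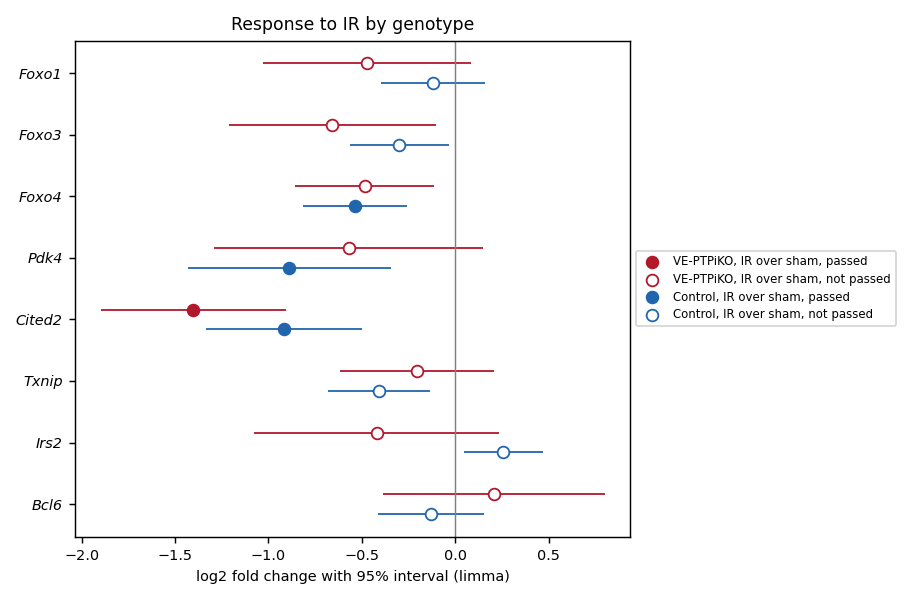
Log2 difference of IR over sham for each gene in each genotype, with 95% intervals and filled symbols for genes that passed at adjusted p under 0.05. Cited2 is filled in both genotypes, at -1.40 in VE-PTPiKO and -0.92 in Control kidneys, and Foxo4 and Pdk4 in Control kidneys.

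Per length, Txnip and Pdk4 were the most abundant of the 8 genes, and among the FOXO factors Foxo3 stood above Foxo1 and Foxo4. RPKM, the reads in a gene scaled to its exon length and to the depth of the library, averaged 376.0 for Txnip over the 12 libraries and 323 for Pdk4, at the 99.5 and 99.4 percentile of genes by this measure. The exon lengths are from GENCODE, whose spans of Foxo1, Foxo3 and Irs2 reach further than the deposited ones. How far this shifts RPKM between genes was not tested. Foxo3 averaged 46.0 RPKM, Cited2 25.0 and Irs2 23.6, and these 3 lay at the 93.8, 88.2 and 87.5 percentile of genes. Foxo1 averaged 7.31 RPKM, Foxo4 6.62 and Bcl6 5.98, at the 66.2, 64.1 and 62.1 percentile. The ranges over libraries show which neighbours in this order can be separated. Txnip ran from 275 to 543 RPKM and Pdk4 from 152 to 587, so that pair overlapped. Foxo3, at 29.3 to 70.6 RPKM, also overlapped with Cited2 at 13.85 to 45.004 and Irs2 at 17.036 to 37.508. The 3 lowest genes overlapped with each other, at 4.93 to 10.8 RPKM for Foxo1, 4.67 to 8.59 for Foxo4 and 3.88 to 9.24 for Bcl6. Every library of Pdk4 and Txnip lay above every library of Foxo3, and every library of Cited2 and Irs2 above every library of Foxo1, Foxo4 and Bcl6. Pdk4 had the widest spread, 4.09-fold between its lowest and highest library, and Foxo4 the narrowest, 1.83-fold.

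**Figure D2:**
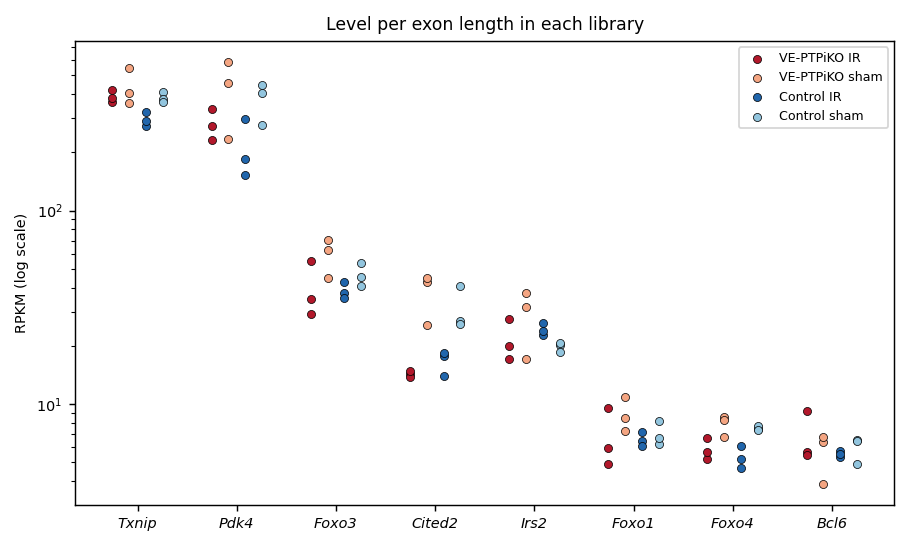
Levels of the 8 genes in RPKM on a log axis, with each point a library and the groups marked in the legend. Txnip and Pdk4 lie between 152 and 587 RPKM in every library, while Foxo1, Foxo4 and Bcl6 lie between 3.88 and 10.8.

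By RPKM on these exon lengths, Foxo3 was the most abundant FOXO transcript in every library. It made up 75.5% ± 1.5 of the summed RPKM of Foxo1, Foxo3 and Foxo4 in VE-PTPiKO IR, 77.7% ± 2.41 in VE-PTPiKO sham, 76.4% ± 1.95 in Control IR and 76.2% ± 1.55 in Control sham kidneys (SD, n = 3 each). Foxo1 made up 12.9%, 11.8%, 13.1% and 11.5% in the same 4 groups, and Foxo4 11.6%, 10.5%, 10.5% and 12.4%. The share of Foxo3 thus differed between group means by less than its SD in VE-PTPiKO sham kidneys. The summed level was 52.3 ± 16.6 RPKM in VE-PTPiKO IR, 76.1 ± 15.3 in VE-PTPiKO sham, 50.4 ± 3.94 in Control IR and 61.1 ± 7.77 in Control sham kidneys. Foxo6, the remaining mouse family member and one known mainly from brain, had 0 to 5 reads per library, so no change in it was detectable at this depth.

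Of the 3 FOXO factors, Foxo4 was lower after IR in both genotypes with no overlap between IR and sham libraries, and it passed the test in Control kidneys. Levels are given from here on as normalised read counts, scaled to be comparable over the 12 libraries. Foxo4 lies on chrX:101254528-101260873, plus strand (mm10), and encodes the FOXO factor best known from muscle and from stress signalling. It had 317, 347 and 390.2 normalised reads in VE-PTPiKO IR kidneys, against 415, 526 and 543 in VE-PTPiKO sham kidneys. It had 297, 320.0 and 363 in Control IR kidneys, against 474, 474 and 471 in Control sham kidneys. The lowest sham library in each genotype was thus above the highest IR library. The share of all genes without such overlap was not counted, here or for the genes and comparisons below. In Control kidneys Foxo4 fell 1.45-fold (log2 -0.53 ± 0.13 SE, limma with Benjamini-Hochberg adjusted p = 0.0197). In VE-PTPiKO kidneys its log2 difference was -0.49 ± 0.16 (adjusted p = 0.194). The authors' deposited table gave -0.46 there (adjusted p = 0.0315). The Control call was lost without IR replicate 1 (adjusted p = 0.0835), IR replicate 2 (0.104) or sham replicate 3 (0.0558).

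Foxo3 (chr10:42185786-42276742, minus strand) encodes the factor linked in many cell types to cell survival, autophagy and oxidative stress defence. It had 3883, 4682.5 and 6987 normalised reads in VE-PTPiKO IR kidneys, against 5957, 9388 and 8950.5 in VE-PTPiKO sham kidneys. In Control kidneys it had 5184, 4747 and 5558 after IR, against 6251, 7247 and 5672 after sham surgery. The Control IR libraries all lay below the Control sham libraries on this scale but overlapped with them as CPM, and the VE-PTPiKO groups overlapped on both. The log2 difference was -0.66 ± 0.25 in VE-PTPiKO kidneys (adjusted p = 0.238) and -0.30 ± 0.12 in Control kidneys (adjusted p = 0.149), and neither passed. In the authors' deposited table the Control difference was -0.30 (adjusted p = 0.0422). Without VE-PTPiKO IR replicate 3, the library highest in Malat1 and highest in Foxo3 of its group, the VE-PTPiKO difference was -0.89 ± 0.19 and passed (adjusted p = 0.0216). That fit called 1925 genes, beside 445 with all libraries. Without VE-PTPiKO IR replicate 1 the VE-PTPiKO difference was -0.47 ± 0.26 (adjusted p = 0.609). Without IR replicate 3 and sham replicate 2, the VE-PTPiKO libraries high in Malat1, it was -0.77 ± 0.19 (adjusted p = 0.0586).

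Foxo1 (chr3:52268337-52350109, plus strand), the main FOXO effector of insulin in liver and a regulator of vessel growth and of Angpt2 in endothelium, showed a like picture at a lower level. It had 748, 913 and 1385 normalised reads in VE-PTPiKO IR kidneys, against 1112, 1289 and 1770.0 in VE-PTPiKO sham kidneys. It had 1021, 1097 and 906 in Control IR kidneys, against 981, 1257 and 1066 in Control sham kidneys. IR and sham libraries overlapped in both genotypes. The log2 difference was -0.47 ± 0.25 in VE-PTPiKO (adjusted p = 0.417) and -0.12 ± 0.13 in Control kidneys (adjusted p = 0.634). Without VE-PTPiKO IR replicate 3, again the highest of its group, the VE-PTPiKO difference was -0.72 ± 0.19 and passed (adjusted p = 0.0412), in the same fit that called 1925 genes. Without VE-PTPiKO IR replicate 1 the VE-PTPiKO difference was -0.28 ± 0.25 (adjusted p = 0.818). Without the VE-PTPiKO libraries high in Malat1, IR replicate 3 and sham replicate 2, it was -0.76 ± 0.22 (adjusted p = 0.0821).

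**Figure D3:**
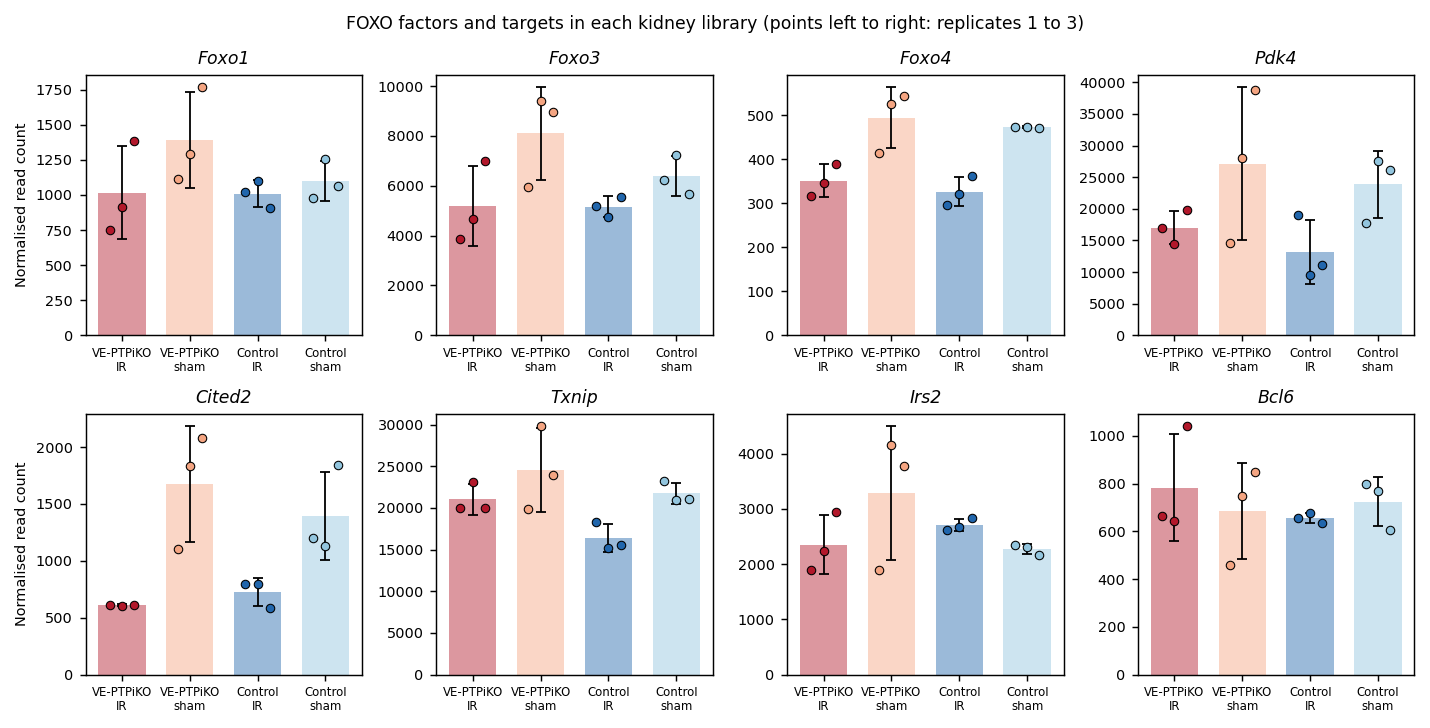
Normalised read counts of each gene in the 4 groups, with bars for the mean, error bars for the SD and points for the 3 libraries. Foxo4 and Cited2 show no overlap between IR and sham libraries in either genotype.

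Cited2 was the only one of the 8 genes that passed in both genotypes. It encodes a small nuclear protein that binds CBP and p300 and so competes with HIF-1 alpha for these co-activators, and it is described as a FOXO3 target in cultured cells. The gene lies at chr10:17723228-17725674, plus strand. Its normalised read counts were 615, 602 and 616 in VE-PTPiKO IR kidneys, against 1106, 1838 and 2083 in VE-PTPiKO sham kidneys. In Control kidneys they were 794, 797 and 586 after IR, against 1205, 1135 and 1839 after sham surgery. All 6 IR libraries lay below all 6 sham libraries. Cited2 fell 2.64-fold in VE-PTPiKO kidneys (log2 -1.40 ± 0.22, adjusted p = 0.0121) and 1.89-fold in Control kidneys (log2 -0.92 ± 0.19, adjusted p = 0.00993). The Control call held in all 19 settings tried, with log2 differences from -1.05 to -0.70. Both calls held without the libraries of the same genotype that were high in Malat1. The log2 difference was then -1.32 ± 0.26 in VE-PTPiKO (adjusted p = 0.0283) and -1.05 ± 0.19 in Control kidneys (adjusted p = 0.00868). The VE-PTPiKO call was lost without IR replicate 2 (adjusted p = 0.0613), sham replicate 2 (0.0646) or sham replicate 3 (0.0689).

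Pdk4 encodes pyruvate dehydrogenase kinase 4, which phosphorylates and switches off the pyruvate dehydrogenase complex and so holds back glucose oxidation, and it is a textbook FOXO1 target of the fasted state. It lies at chr6:5483351-5496278, minus strand. Its normalised read counts were 16896, 14430.4 and 19751 in VE-PTPiKO IR kidneys, against 14578, 28056 and 38796 in VE-PTPiKO sham kidneys. In Control kidneys they were 18988, 9488 and 11148 after IR, against 17797, 27638 and 26152 after sham surgery. IR and sham libraries overlapped in both genotypes, through VE-PTPiKO sham replicate 1 and through Control IR replicate 1. Pdk4 fell 1.85-fold in Control kidneys (log2 -0.89 ± 0.25, adjusted p = 0.0408), and its log2 difference in VE-PTPiKO kidneys was -0.57 ± 0.32 (adjusted p = 0.451). The Control call held in 11 of 19 settings. It was lost without IR replicate 2 (log2 -0.68, adjusted p = 0.19), IR replicate 3 (0.127), sham replicate 2 (0.107) or sham replicate 3 (0.149). It was also lost with edgeR (0.0512), with DESeq2 (0.113) and with 1 model of all 12 libraries (0.116). The setting without the libraries high in Malat1 left out only sham replicate 2 here. It is thus the same fit, counted again among the 19. Without Control IR replicate 1 the difference was -1.19 (adjusted p = 0.00403), and the authors' deposited table gave -0.66 (adjusted p = 0.0899).

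Txnip encodes an alpha-arrestin that binds thioredoxin and lowers glucose uptake, and it rises with glucose through the factors MondoA and ChREBP. It lies at chr3:96557957-96561857, plus strand. Its normalised read counts were 19927, 23163 and 19943 in VE-PTPiKO IR kidneys, against 19834, 29796 and 23942 in VE-PTPiKO sham kidneys. In Control kidneys they were 18329.8, 15224 and 15566 after IR, against 23219.5, 20971 and 21021 after sham surgery. Control IR libraries all lay below Control sham libraries, while the VE-PTPiKO groups overlapped. The Control log2 difference was -0.41 ± 0.12 and missed the threshold (adjusted p = 0.059), and the VE-PTPiKO difference was -0.20 ± 0.18 (adjusted p = 0.672), or -0.02 ± 0.14 without the libraries high in Malat1. The Control difference passed in 5 of 19 settings, among them edgeR (adjusted p = 0.0485), DESeq2 (0.0122) and the fit without Control IR replicate 1 (0.0401). The authors' deposited table gave -0.39 (adjusted p = 0.00258). Exons of the opposite-strand gene Gm15441 cover 19.4% of Txnip's exon length, and its reads were 0.064% to 1.24% of those of Txnip. Without knowing whether the counting used strand, how far this overlap touches the count of Txnip was not tested.

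Irs2 encodes insulin receptor substrate 2, the adaptor that carries the insulin signal to PI3K and that FOXO proteins induce in fasted liver. It lies at chr8:10986964-11008430, minus strand. Its normalised read counts were 1888.5, 2233.5 and 2941 in VE-PTPiKO IR kidneys, against 1898, 4165 and 3786 in VE-PTPiKO sham kidneys. In Control kidneys they were 2615, 2681 and 2833 after IR, against 2338, 2317 and 2165.8 after sham surgery. Irs2 was the only one of the 8 genes with all Control IR libraries above all Control sham libraries, and in VE-PTPiKO kidneys 2 of the 3 sham libraries lay above every IR library. How many of all genes separate fully was not counted. The log2 difference was -0.42 ± 0.29 in VE-PTPiKO kidneys (adjusted p = 0.56) and 0.26 ± 0.10 in Control kidneys (adjusted p = 0.123). The interaction, the VE-PTPiKO response minus the Control response, was -0.68 ± 0.34 with a 95% interval of -1.40 to 0.05 (adjusted p = 0.999). It was -1.03 without VE-PTPiKO sham replicate 1 and -0.46 without VE-PTPiKO sham replicate 2. The signs were thus opposite, but the difference between genotypes did not pass. In the authors' deposited table Irs2 was at 0.25 in Control kidneys (adjusted p = 0.0278).

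Bcl6 (chr16:23965052-23988612, minus strand) encodes a transcriptional repressor known from germinal centre B cells and, in liver, as a repressor of lipid and STAT5 target genes. It had 666, 644 and 1041 normalised reads in VE-PTPiKO IR kidneys, against 458, 748 and 849.8 in VE-PTPiKO sham kidneys. It had 655, 678 and 634 in Control IR kidneys, against 798, 769.7 and 606 in Control sham kidneys. All groups overlapped. The log2 difference was 0.21 ± 0.26 in VE-PTPiKO kidneys (adjusted p = 0.788) and -0.13 ± 0.13 in Control kidneys (adjusted p = 0.61). The VE-PTPiKO value turned to -0.01 without VE-PTPiKO IR replicate 3 and to -0.06 without VE-PTPiKO sham replicate 1, so it had no stable direction.

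The comparisons of VE-PTPiKO with Control ask whether the genotype changed these genes before or after injury. None of the 8 genes passed in sham kidneys, where 0% of 16339 genes passed the limma test, nor after IR, where 0% passed. edgeR also called 0 genes in each, and DESeq2 called 1 in each, which was none of the 8. At an unadjusted p under 0.05 there were 267 genes in sham kidneys, with none of the 8, and 709 genes after IR, with Txnip alone of the 8. Both counts lie below a fraction of 0.05 of the 16339 genes tested, the fraction that this threshold gives with no difference. Txnip averaged 21011 ± 1864 normalised reads in VE-PTPiKO IR kidneys and 16373 ± 1703 in Control IR kidneys (SD, n = 3 each), with every VE-PTPiKO IR library above every Control IR library. Its log2 difference was 0.36 ± 0.15 with a 95% interval of 0.03 to 0.69 (unadjusted p = 0.0328, limma adjusted p = 1). How many of all genes separate by library in this way was not counted. Pdk4 averaged 17026 ± 2663 in VE-PTPiKO IR kidneys and 13208 ± 5074 in Control IR kidneys, a log2 difference of 0.42 ± 0.33 with a 95% interval of -0.29 to 1.13, which was 0.72 without Control IR replicate 1 and 0.215 without Control IR replicate 2. In sham kidneys Irs2 was at 3283 ± 1214 in VE-PTPiKO and 2274 ± 94.0 in Control mice, a log2 difference of 0.45 with a 95% interval of -0.06 to 0.96. It was 0.81 without VE-PTPiKO sham replicate 1, 0.24 without VE-PTPiKO sham replicate 2 and 0.25 without the libraries high in Malat1. The other log2 differences in sham kidneys were 0.32 for Foxo1, 0.32 for Foxo3, 0.05 for Foxo4 and 0.10 for Pdk4. Cited2 was at 0.25 there, Txnip at 0.16 and Bcl6 at -0.12. After IR they were -0.03 for Foxo1, -0.04 for Foxo3, 0.10 for Foxo4, -0.23 for Cited2, -0.23 for Irs2 and 0.22 for Bcl6.

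The interaction asks whether the response to IR differed between the genotypes, and it passed for none of the 8 genes and for 0% of all genes tested, with 0 genes called by edgeR and 0 by DESeq2. At an unadjusted p under 0.05 it held 432 of the 16339 genes tested, again below a fraction of 0.05, and none of the 8. For Cited2, at -1.40 in VE-PTPiKO and -0.92 in Control kidneys, the interaction was -0.48 ± 0.32 with a 95% interval of -1.18 to 0.21. It was -0.76 without VE-PTPiKO sham replicate 1 and -0.27 without the libraries high in Malat1. For Foxo4, at -0.49 and -0.53, it was 0.05 with a 95% interval of -0.37 to 0.47. For Foxo1 it was -0.35, for Foxo3 -0.36, for Pdk4 0.32, for Txnip 0.21 and for Bcl6 0.34, and that of Irs2 is given above. Intervals of this width do not show that the genotypes respond alike.

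In 2 VE-PTPiKO libraries nearly all of the 8 genes lay at the same end of their group. VE-PTPiKO sham replicate 1 was the lowest of its group for all 8 genes, with log2 deviations from the group mean between -0.79 for Pdk4 and -0.24 for Foxo4. VE-PTPiKO IR replicate 3 was the highest of its group for 7 of the 8, by 0.50 for Foxo1, 0.47 for Foxo3 and 0.45 for Bcl6, while Txnip lay at -0.07 and Cited2 at 0.01. The share of all genes for which these libraries were lowest or highest in their group was not counted. The counts are thus not a trait shown for these 8 genes. Foxo3 was the highest of its group in each of the 3 libraries high in Malat1. Without VE-PTPiKO sham replicate 1 the VE-PTPiKO response was -1.67 ± 0.15 for Cited2 (adjusted p = 0.00177), -0.96 ± 0.22 for Pdk4 (adjusted p = 0.0736) and -0.77 ± 0.20 for Irs2 (adjusted p = 0.108). Over all genes, the deviation of a library from its group also went with transcript length, with a rank correlation of 0.34 in VE-PTPiKO IR replicate 3 and -0.29 in VE-PTPiKO sham replicate 1. With each library's slope on transcript length removed, the calls of the 8 genes stayed as they were, and the VE-PTPiKO response was -0.40 ± 0.20 for Foxo1, -0.60 ± 0.20 for Foxo3 and -1.46 ± 0.21 for Cited2. The part of Malat1-rich RNA in these deviations was not tested.

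**Figure D4:**
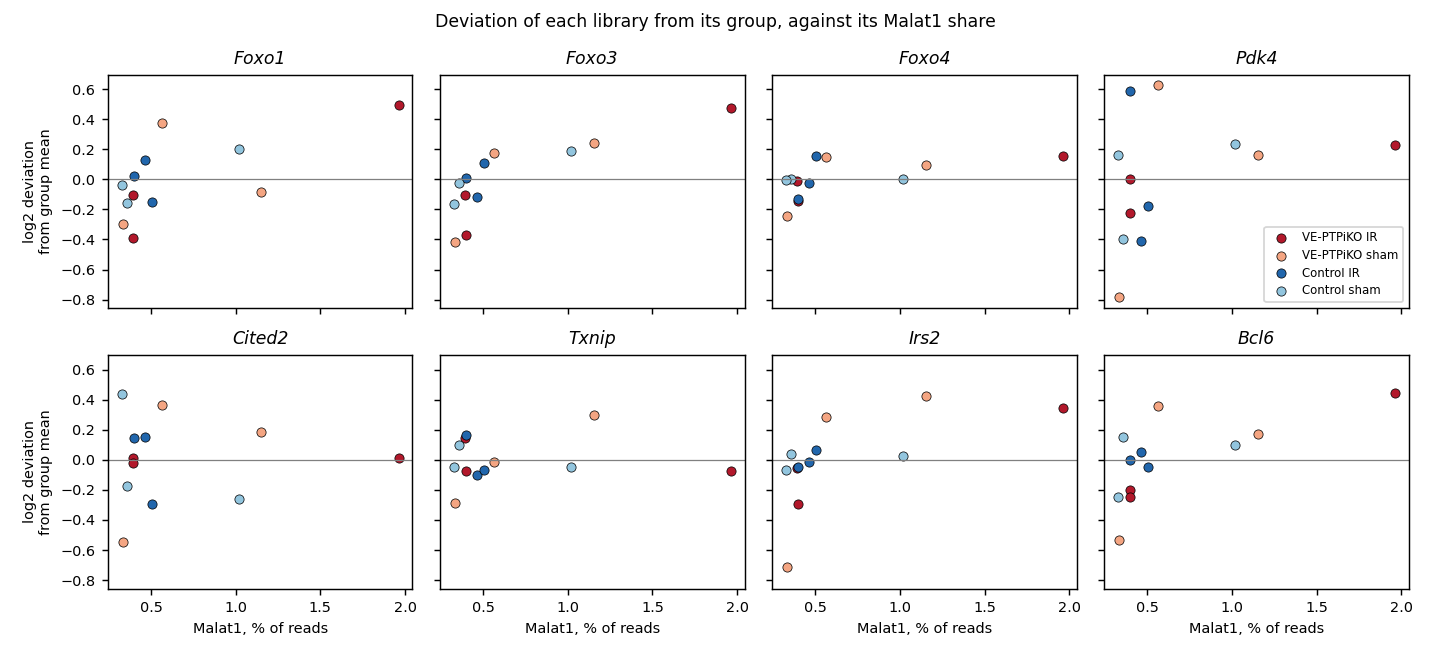
Deviation of each gene from its group mean on the log2 scale, by library, against the share of reads from Malat1. VE-PTPiKO IR replicate 3, at 1.96% Malat1, lies above 0 for 7 of the 8 genes.

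The 250 bases before the RefSeq start site are shown for Cited2, which fell in both genotypes, for Txnip, the most abundant of the 8, and for Irs2, whose signs were opposite (GRCm38.p6, given on the strand of the gene). RefSeq promoter windows were matched for 7 of the 8 genes, with Bcl6 having 2 windows and Foxo4 none. Capitals mark matches, on either strand, to the forkhead motif GTAAACA, to the insulin response sequence CAAAACA or its reverse complement TGTTTTG, and to the E-box CACGTG, which reads the same on both strands. Cited2 upstream is chr10:17722978-17723227, plus strand. Txnip upstream is chr3:96557707-96557956, plus strand. Irs2 upstream is chr8:11008930-11009179, minus strand.
Cited2: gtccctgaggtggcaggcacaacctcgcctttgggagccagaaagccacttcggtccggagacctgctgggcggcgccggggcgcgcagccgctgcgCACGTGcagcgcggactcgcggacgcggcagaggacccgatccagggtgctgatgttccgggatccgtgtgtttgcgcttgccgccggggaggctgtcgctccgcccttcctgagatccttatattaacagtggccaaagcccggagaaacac
Txnip: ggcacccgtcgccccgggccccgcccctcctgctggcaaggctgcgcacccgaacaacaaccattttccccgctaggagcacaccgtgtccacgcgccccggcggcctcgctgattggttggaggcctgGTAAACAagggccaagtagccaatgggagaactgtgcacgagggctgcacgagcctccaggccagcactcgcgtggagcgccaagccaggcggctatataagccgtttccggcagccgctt
Irs2: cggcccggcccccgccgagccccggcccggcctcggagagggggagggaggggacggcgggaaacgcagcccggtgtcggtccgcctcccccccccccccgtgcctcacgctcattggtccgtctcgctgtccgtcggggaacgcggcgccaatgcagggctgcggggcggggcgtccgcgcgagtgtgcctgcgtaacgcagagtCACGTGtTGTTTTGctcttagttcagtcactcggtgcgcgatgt
Txnip holds a forkhead motif 121 bases before its start, and it is the only one of the 8 member windows with that motif, which is in 3.65% of 32851 promoter windows of 300 bases. Irs2 holds TGTTTTG 37 bases before its start, a sequence that with its complement is in 6.28% of windows, directly after an E-box 44 bases before the start. The E-box is in 7.15% of windows and also in those of Cited2, 153 bases before its start, and of Bcl6, 60 bases before. These matches are descriptions of letters, not of bound sites, and the windows of Foxo1, Foxo3 and Pdk4 held none of the 3 motifs.

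Around the 8 genes, the other 130 genes of 8 lists of the FOXO pathway included 13 that passed in VE-PTPiKO and 31 in Control kidneys, out of 129 tested, and the 13 were all among the 31. Over all genes tested, 2.71% passed in VE-PTPiKO and 11.5% in Control kidneys. The 21 tested genes of the PI3K and AKT arm upstream of FOXO held no call in VE-PTPiKO and 2 lower calls in Control kidneys, with median log2 differences of -0.22 and -0.16, beside -0.01 for all genes tested. Pik3ip1, an inhibitor of PI3K, was at -0.82 ± 0.28 in VE-PTPiKO kidneys (adjusted p = 0.193) and fell by 0.93 ± 0.24 in Control kidneys. The kinase gene Mtor was at -0.89 ± 0.22 in VE-PTPiKO kidneys (adjusted p = 0.0785) and fell by 0.85 ± 0.17 in Control kidneys. Of 20 other regulators of FOXO, with medians of -0.03 and 0.04, 1 rose in each genotype. It was Mdm2, the ubiquitin ligase gene that p53 induces, at 0.85 ± 0.12 in VE-PTPiKO and 0.96 ± 0.11 in Control kidneys.

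Of 40 other reported FOXO targets, 4 rose and 4 fell in VE-PTPiKO kidneys, and 9 rose and 7 fell in Control kidneys, with 8 passing in both and medians of -0.13 and -0.11. Over all genes tested, 1.92% rose and 0.793% fell in VE-PTPiKO kidneys, and 7.48% rose and 4.02% fell in Control kidneys. Both genes of gluconeogenesis that passed were lower after IR. G6pc, the catalytic subunit of glucose-6-phosphatase, was at -2.45 ± 0.25 on the log2 scale in VE-PTPiKO and -2.80 ± 0.22 in Control kidneys. Pck1, phosphoenolpyruvate carboxykinase, was at -1.37 ± 0.21 and -1.43 ± 0.17. Igfbp1, an insulin-like growth factor binding protein, was at -2.86 ± 0.53 and -2.89 ± 0.40, and Klf15, a transcription factor of fasting metabolism, at -0.99 ± 0.15 and -1.08 ± 0.16. The 4 that rose in both are known from growth and stress responses. The stress gene Gadd45a was at 1.32 ± 0.23 in VE-PTPiKO and 1.88 ± 0.18 in Control kidneys, and the transcription factor Myc at 0.92 ± 0.15 and 1.43 ± 0.14. Spry2, an inhibitor of receptor tyrosine kinase signalling, was at 1.12 ± 0.15 and 1.44 ± 0.14, and the pseudokinase gene Trib1 at 1.17 ± 0.18 and 1.66 ± 0.17.

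Around Pdk4, the 13 other genes of the pyruvate dehydrogenase complex, its kinases and its phosphatases held 2 lower calls in VE-PTPiKO and 3 in Control kidneys, and none higher, with medians of -0.20 and -0.15. The kinase Pdk2 fell in both genotypes, to a log2 difference of -0.99 ± 0.14 in VE-PTPiKO and -0.89 ± 0.13 in Control kidneys. The phosphatase Pdp2, which reverses what the kinases do, fell likewise, to -1.36 ± 0.13 and -1.30 ± 0.12. The kinase Pdk1, named after its values were seen, was at -0.35 ± 0.14 in VE-PTPiKO kidneys (adjusted p = 0.263) and fell by 0.42 ± 0.10 in Control kidneys. In Control kidneys Pdk4 was thus lower together with kinases that act like it and with a phosphatase that opposes them. The Pdk4 call there held in 11 of 19 settings and did not pass in the authors' deposited table. Pdk2 and Pdp2 also fell in VE-PTPiKO kidneys, and the Pdk4 response was not shown to differ between genotypes.

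Around Txnip, 14 genes of the alpha-arrestin, thioredoxin and MondoA list held 1 higher call in VE-PTPiKO kidneys, and 3 higher and 2 lower in Control kidneys, with medians of -0.15 and 0.0009. Slc2a1, the glucose transporter GLUT1 that TXNIP removes from the cell surface, rose by 0.96 ± 0.19 in VE-PTPiKO and by 1.27 ± 0.12 in Control kidneys. The alpha-arrestin Arrdc2 was at -0.97 ± 0.23 in VE-PTPiKO kidneys (adjusted p = 0.0678) and fell by 1.17 ± 0.28 in Control kidneys. The other calls in Control kidneys, named after their values were seen, were the alpha-arrestins Arrdc3 at -0.83 ± 0.12 and Arrdc4 at 0.52 ± 0.12 and the thioredoxin reductase Txnrd1 at 0.61 ± 0.15. Around Cited2, 13 genes of the CITED, CBP/p300 and HIF list held no call in VE-PTPiKO kidneys, and 1 higher and 1 lower in Control kidneys, with medians of -0.35 and -0.15. Hif1a, the oxygen-regulated HIF subunit, was at 0.46 ± 0.14 in VE-PTPiKO (adjusted p = 0.134) and rose by 0.49 ± 0.11 in Control kidneys. Tfap2b, whose protein uses CITED2 as co-activator, was at -0.88 ± 0.22 in VE-PTPiKO (adjusted p = 0.0794) and fell by 1.06 ± 0.19 in Control kidneys. Around Bcl6, 12 genes held 1 higher call in VE-PTPiKO kidneys, and 2 higher and 1 lower in Control kidneys, with medians of -0.20 and 0.04. Socs2, a STAT5-induced inhibitor of cytokine signalling that BCL6 represses in liver, rose by 1.59 ± 0.18 in VE-PTPiKO and by 1.70 ± 0.19 in Control kidneys. Cish, of the same family, was at 0.15 ± 0.20 in VE-PTPiKO kidneys (adjusted p = 0.807) and rose by 0.88 ± 0.24 in Control kidneys. The lower call in Control kidneys, named after its values were seen, was the transcription factor Stat5a at -0.63 ± 0.15.

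**Figure D5:**
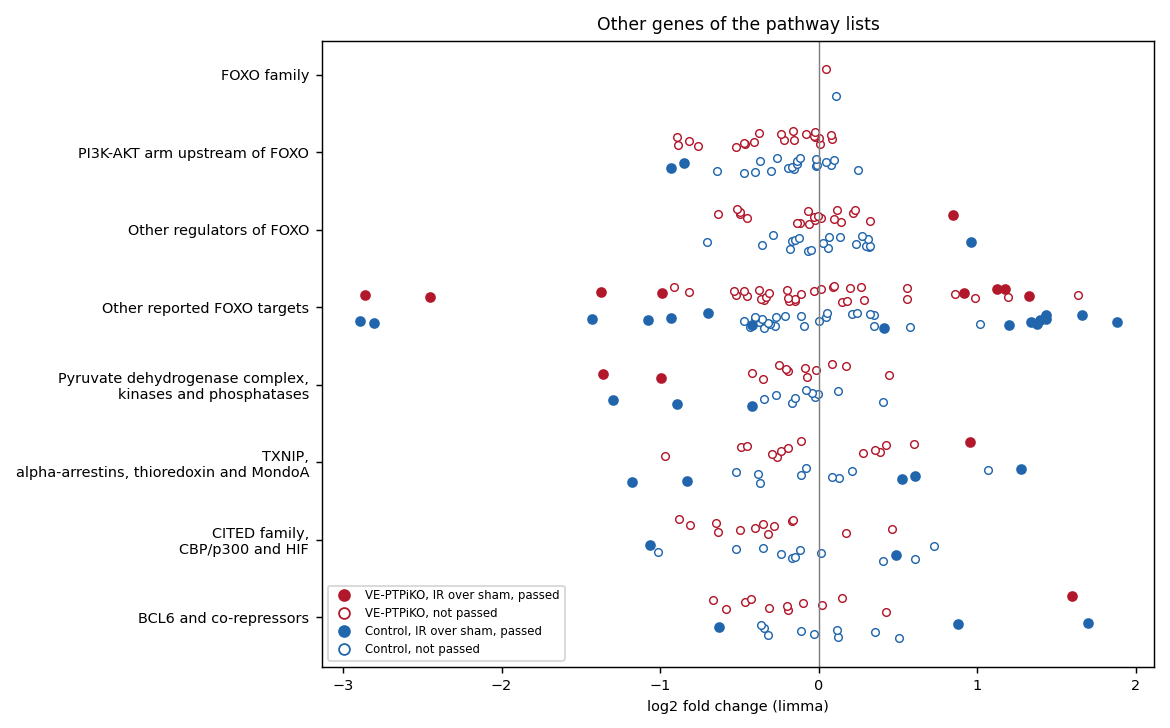
Log2 difference of IR over sham for the genes of the pathway lists in each genotype, with each point a gene and filled points those that passed. Genes passed in both directions, among them Igfbp1 at -2.86 in VE-PTPiKO and -2.89 in Control kidneys and Socs2 at 1.59 and 1.70.

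The genes whose pattern over the 12 libraries was most like that of each member were found among 10349 genes, as the smallest mean absolute difference of log2(CPM + 1) after centring. Those of the 3 FOXO factors lay closest, with Foxo1 nearest to Sik2 (0.089), Foxo3 to Zfp652 (0.078) and Foxo4 to Lzts2 (0.067). Prkaa2, the AMPK catalytic subunit, was also near to Foxo4 (0.071). Pdk4 and Cited2 had no gene as close, but the measure is not scaled to how much a gene itself varied. The nearest to Pdk4 were Tsc22d3, a glucocorticoid-induced gene, at 0.186 and the acyl-CoA thioesterase Acot3 at 0.187, and the nearest to Cited2 was Rassf3 at 0.167, beside mean absolute deviations of 0.448 for Pdk4 and 0.55 for Cited2 themselves. Txnip was nearest to Tcp11l2 (0.098), Irs2 to Zfp384 (0.128) and Bcl6 to Epc1 (0.106). The mean absolute deviations of these genes themselves were smaller, at 0.178 for Txnip, 0.282 for Irs2 and 0.206 for Bcl6. Those of Foxo1, Foxo3 and Foxo4 were 0.243, 0.29 and 0.23, also below those of Pdk4 and Cited2. Among the 8 genes the closest pair was Foxo3 and Foxo1 (0.148), followed by Foxo4 and Foxo3 (0.164). The libraries share their groups and depth in this measure, so it is a description with no test.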

How the data were processed

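Whole-kidney RNA, extracted with Trizol, was made into TruSeq libraries, per the labels' protocols. The submitters' processing notes name the mm10 genome and the tools DESeq2, HTSeq, STAR and FastQC, with no versions, and strandedness is not given. The deposited tables, 1 per genotype, hold normalized signal: counts divided by 1 size factor per library (0.8863 to 1.2125), as the values showed. Multiplying back gave whole reads for 100.0% of values within 0.02. The authors' deposited log2 fold changes and p-values come from DESeq2, per the file headers, and their deposited test statistic, a score, was not used. Of the 23493 lines of a table, 182 identifiers were repeated with identical values and were counted once.

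IR and sham were compared within each table by limma 3.58.1 (R 4.3.3), with its trend option, on log2(value + 1). Genes under a mean of 1 were left out. Adjusted p is Benjamini-Hochberg over all genes tested, with 0.05 as the threshold, and fold changes are on the log2(value + 1) scale. Genotype contrasts and the interaction used the recovered reads of all 12 libraries, scaled by the median of ratios over 14828 genes. This scale, on which levels are printed, differs from the deposited values by -0.99% to 0.85% per library. RPKM used merged exon lengths of GENCODE M21. GENCODE starts Foxo3 at 42181841 and Irs2 at 10984681 and ends Foxo1 at 52353221, beyond the deposited coordinates printed above. Alternatives included edgeR 4.0.16 and DESeq2 1.42.0 on the recovered reads, other filters and scalings, library weights and leaving out libraries. The scripts were tested on simulated data. Coordinates follow the files, with 1 added to the start. Promoters come from RefSeq (GRCm38.p6). The members and the lists were chosen with earlier results of these data known. All 8 members are named in every comparison. Of the lists, named genes are those passing in both genotypes and the 2 with the largest change in each comparison, and of the most alike genes up to 3 per member. The 2 single-cell samples of the series were not analysed here.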

Additional observations from a re-analysis of the deposited data

How the results depend on the processing

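Of 848 values of single genes under other settings, 795 kept their direction and their side of the threshold, 12 newly passed, 14 no longer passed and 27 changed sign, none of these with an adjusted p under 0.05. With each library left out in turn, the number of genes called ran from 126 to 1925 in VE-PTPiKO and from 862 to 2010 in Control kidneys, beside 445 and 1870 with all libraries, and the members called from 0 to 3 and from 1 to 3. The highest VE-PTPiKO count came without IR replicate 3, and the lowest Control count without IR replicate 2. VE-PTPiKO counts also moved with DESeq2 (1013 genes) and with 1 model of all 12 libraries (1019). They moved too without the VE-PTPiKO libraries highest in Malat1, IR replicate 3 and sham replicate 2 (853). With library weights they were 3879 genes and 6 members: Foxo1, Foxo3, Foxo4, Pdk4, Cited2 and Irs2. The genotype and interaction contrasts, at 0 genes, held 0 to 1 with a library left out, 1 in each genotype contrast with DESeq2, 1 in sham kidneys without the libraries highest in Malat1 and 1 for the interaction computed within the tables. The cause of these shifts was not tested. Signs turned mostly near 0. Bcl6 in VE-PTPiKO kidneys was at -0.14 with library weights and at -0.0578 to 0.385 with a library left out. In sham kidneys, leaving out a library gave genotype differences of -0.0194 to 0.175 for Foxo4, -0.21 to 0.49 for Pdk4 and -0.30 to 0.15 for Bcl6, while Bcl6 was at 0.0634 with library weights and Txnip at -0.0198 without the libraries highest in Malat1. After IR they were -0.28 to 0.16 for Foxo1, -0.27 to 0.15 for Foxo3 and -0.0014 to 0.34 for Bcl6, also -0.0014 for Bcl6 without the libraries highest in Malat1. There edgeR gave 0.0254 for Foxo1 and 0.0207 for Foxo3, and DESeq2 0.0104 and 0.0058. The interaction was -0.0708 to 0.13 for Foxo4 and -0.0732 to 0.63 for Pdk4 with a library left out, and -0.0565 for Foxo4 and -0.0467 for Bcl6 with library weights. Only 1 of the 6 same-numbered pairs of IR and sham libraries, VE-PTPiKO replicate 1, deviated together at r over 0.1 (r = 0.301, -0.2 and 0.04 in VE-PTPiKO and 0.05, 0.003 and -0.059 in Control kidneys). VE-PTPiKO IR replicate 3 was at r = -0.397 with sham replicate 1 and 0.358 with sham replicate 2. Pairs of unlike number thus correlated as strongly, so these values cannot show whether the numbers mark pairs. With the replicate number as a block, 604 genes and 1 member passed in VE-PTPiKO kidneys, 1805 genes and 3 members in Control kidneys, and 0 genes in the other contrasts.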

Other observations

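Gm15441, the gene on the opposite strand that overlaps Txnip, fell after IR in both genotypes. Txnip was also lower, at -0.20 in VE-PTPiKO and -0.41 in Control kidneys, and passed the limma test in neither. Its Control difference passed in 5 of 19 settings and in the authors' deposited table. Gm15441 was not examined under the other settings, and it was chosen after its values were seen. Its normalised read counts were 31.2, 15.2 and 39.2 in VE-PTPiKO IR kidneys, against 81.9, 79.9 and 168 in VE-PTPiKO sham kidneys. In Control kidneys they were 11.7, 24.0 and 24.6 after IR, against 56.2, 259.5 and 135 after sham surgery. No IR library reached the level of any sham library of its genotype. The log2 difference was -1.92 ± 0.41 in VE-PTPiKO (limma adjusted p = 0.0462) and -2.65 ± 0.49 in Control kidneys (adjusted p = 0.00504). Without knowing whether the counting used strand, reads of this gene and of Txnip cannot be told apart where they overlap.

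Angpt2, the Tie2 ligand and endothelial FOXO1 target, was also chosen after its values were seen, for its place in the signalling that VE-PTP acts on. It rose after IR in Control kidneys (log2 0.41 ± 0.12, limma adjusted p = 0.0474) and was at 0.15 ± 0.16 in VE-PTPiKO kidneys (adjusted p = 0.735). The interaction was -0.27 ± 0.18 (adjusted p = 0.999), so the responses were not shown to differ. Cdkn1a, the cell cycle inhibitor p21, was at 0.55 ± 0.25 in VE-PTPiKO kidneys (adjusted p = 0.336) and rose by 1.20 ± 0.14 in Control kidneys (adjusted p = 0.000353), with an interaction of -0.64 ± 0.31 (adjusted p = 0.999). It too was chosen after its values were seen.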
